A study of Mus musculus with 8 samples.

Results

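The 34 genes of the p53 pathway described here were followed in newly made RNA of mouse embryonic stem cells. They are the gene of the transcription factor p53 itself (Trp53) and 33 genes described as its targets or regulators, listed by symbol with earlier results of these data known. All 34 were found by symbol among 37587 genes of the deposited table, and all 34 passed the filter on low values that left 18118 genes for testing. The tumour suppressor p53 is held at a low level by the ubiquitin ligase Mdm2 and its partner Mdm4. When DNA damage or other stress releases it, p53 binds DNA as a tetramer and raises transcription of genes that stop the cell cycle (Cdkn1a), trigger cell death (Bax, Bbc3, Pmaip1, Perp, Fas), repair DNA (Ddb2, Xpc) and switch p53 off again (Mdm2, Ppm1d, Ccng1). In embryonic stem cells p53 is also known to repress Nanog after DNA damage.

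The cells were male embryonic stem cells from 129 mice, cultured without feeders in serum and LIF, with a conditional knockout of Ythdc1. Its protein sits in the nucleus and binds N6-methyladenosine in RNA. They were treated for 4 days with 1 μg/ml 4-hydroxytamoxifen (4OHT), which switches on a tamoxifen-dependent recombinase in such lines, or with the solvent DMSO; the alleles and the recombinase are not described further in the labels. All cells then received 100 μM DRB for 3 h, which blocks the release of RNA polymerase II into gene bodies, and after washout new RNA was labelled with 1 mM 4-thiouridine (4sU) and purified. The 4 groups were 4OHT with 8 min of label, DMSO with 8 min, 4OHT with 0 min and DMSO with 0 min, with 2 libraries each (8 libraries in all). The 0 min libraries show the RNA that is recovered with no labelling time. Titles give ESC number 1 at 0 min and number 2 at 8 min, whereas the deposited columns carry numbers 1 and 2 at both times under both treatments. By the titles, label time and line cannot be told apart. The column numbers could not be tied to the titles, and whether they mark lines or replicates is not given. Libraries are called 1 and 2 here only by those column numbers. Nothing says that the 2 libraries of a group came from separate cultures, so p-values measure the spread between these libraries, which may be technical.

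Recovered reads numbered 93.06 to 133.92 M (M, mega) per library at 8 min and 46.34 to 61.41 M at 0 min. The transcript Gm26917 took 2.67% to 3.92% of them at 8 min, against 23.2% to 27.7% at 0 min. Ythdc1, the targeted gene (gene ID 231386, chr5:86803980-86836659, mm10), had a scaled signal (the deposited value on a scale that sets the median gene of the libraries of a time equal) of 2046 and 2465 in 4OHT, against 2939.8 and 3584 in DMSO at 8 min, and was lower by limma (log2 fold change −0.53 ± 0.13 SE, adjusted p = 0.00204). On the deposited scale at 8 min, where the median gene was higher in 4OHT by 1.44, Ythdc1 was not lower (log2 0.93, adjusted p = 0.166). At 0 min its scaled signal was 156 and 274 in 4OHT, against 159 and 193 in DMSO, with overlapping groups (log2 0.24). The labels do not say which exons are removed, so signal over the whole gene checks the knockout only in part. Of the embryonic stem cell markers, 8 of 8 were measured at 8 min, with summed signals of 5561 and 5595 in 4OHT, against 6919 and 6377 in DMSO. Of these, 3 were lower (Nanog, Tdgf1 and Dppa5a) and Sox2 was higher. The list for a 2-cell-like state held Zscan4 genes and others, and 12 of its 13 names were found. These summed to 404 and 366 in 4OHT, against 32.7 and 37.3 in DMSO, and 6 of 6 tested were higher. With such low DMSO values, these genes could pass the filter on mean signal mainly through the 4OHT libraries. The count of 6 is therefore a description only. Trophoblast markers summed to 86.0 and 109.9 in 4OHT, against 147.8 and 152.1 in DMSO, with 1 higher and 3 lower of 5 tested; primitive endoderm markers summed to 93.4 and 94.1 in 4OHT, against 89.5 and 75.5 in DMSO, with 1 of 4 higher; and feeder markers to 27.4 and 39.7 in 4OHT, against 56.7 and 75.9 in DMSO, with 2 of 2 tested lower. None of these lists had a gene at 0 in all 8 min libraries, and the part of these cell states in the results below was not tested. In bulk RNA, fewer cells of a type and less RNA per cell cannot be told apart.

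The promoters were searched for the DNA element that p53 is known to bind. RefSeq windows (GRCm38.p6, 250 bases before to 50 after a transcript start) were held for 26 of the 34 genes, in 38 windows; Trp53inp1, Zmat3, Perp, Tnfrsf10b, Pmaip1, Xpc, Ddb2 and Rrm2b had none. The 10-base p53 element, which reads the same on both strands, was searched without mismatch, and a pair of elements was searched with at most 2 mismatches in all and at most 13 bases between. An element without mismatch lay in 36.84% of the windows of these genes, against 8.356% of all 32851 promoter windows. A pair lay in 26.32% of them, against 10.07% of all, and belonged to 9 genes: Cdkn1a, Ccng1, Bax, Rps27l, Polk, Gtse1, Ckap2, Aen and Sesn1. Since the genes were listed as p53 targets, this share is a description. The windows of 4 genes are printed, with the elements of the pair in capitals: Cdkn1a, the one pair without mismatch (chr17:29090729-29091028, plus strand, 12 bases between elements); Ccng1, with 1 mismatch and no gap (chr11:40755237-40755536, minus strand); and Aen (chr7:78895808-78896107, plus strand) and Sesn1 (chr10:41887189-41887488, plus strand), with 2 mismatches each, which are the genes with a pair whose signal was higher in 4OHT.
Cdkn1a: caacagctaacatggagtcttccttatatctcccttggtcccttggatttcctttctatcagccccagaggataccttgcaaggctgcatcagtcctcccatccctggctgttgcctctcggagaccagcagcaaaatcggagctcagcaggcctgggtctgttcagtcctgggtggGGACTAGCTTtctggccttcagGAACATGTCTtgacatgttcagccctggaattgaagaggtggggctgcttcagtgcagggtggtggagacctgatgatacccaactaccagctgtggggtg
Ccng1: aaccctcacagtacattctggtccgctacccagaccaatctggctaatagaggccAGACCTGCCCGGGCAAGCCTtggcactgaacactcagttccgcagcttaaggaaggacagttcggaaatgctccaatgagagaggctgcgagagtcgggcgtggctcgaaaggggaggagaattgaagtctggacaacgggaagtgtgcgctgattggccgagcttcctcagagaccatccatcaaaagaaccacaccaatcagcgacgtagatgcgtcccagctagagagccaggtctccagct
Aen: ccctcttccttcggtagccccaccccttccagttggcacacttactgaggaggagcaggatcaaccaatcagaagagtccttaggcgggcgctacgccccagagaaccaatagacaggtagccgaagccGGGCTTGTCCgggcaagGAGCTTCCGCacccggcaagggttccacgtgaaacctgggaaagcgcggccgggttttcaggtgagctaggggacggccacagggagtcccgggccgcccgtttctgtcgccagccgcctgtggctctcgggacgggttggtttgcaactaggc
Sesn1: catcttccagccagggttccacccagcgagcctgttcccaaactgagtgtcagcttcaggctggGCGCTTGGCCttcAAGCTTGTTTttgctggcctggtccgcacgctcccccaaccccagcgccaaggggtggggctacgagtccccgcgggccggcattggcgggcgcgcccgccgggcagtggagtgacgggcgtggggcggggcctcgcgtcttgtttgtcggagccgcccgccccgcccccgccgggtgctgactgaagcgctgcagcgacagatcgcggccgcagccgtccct
In the printed windows only the pair with the fewest mismatches is marked. In Cdkn1a the second element and the 10 bases after it also make a pair, with 1 mismatch and no gap. The marked pair begins 73 bases before the transcript start in Cdkn1a and 195 before it in Ccng1. It begins 121 bases before the start in Aen and 186 before it in Sesn1. Another window of Cdkn1a and another of Sesn1, at other transcript starts, held no pair, with 5 mismatches at best in each.

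At 8 min of label, which shows transcription soon after polymerase is released, p53 pathway genes were higher in 4OHT cells in a minority of cases, and none was lower. Of the 34, 10 (29.4%) were higher by limma with Benjamini-Hochberg adjustment over all 18118 genes, against 19.7% of all genes tested, and 0 were lower, against 17.6% of all genes. The genes that rose were Perp, Fas, Fbxw7, Phlda3, Sesn1, Zmat3, Ddb2, Apaf1, Btg2 and Aen. Cell death had 5 of its 12 genes among them, the cell cycle 2 of 7, p53 and its feedback regulators 1 of 7, DNA repair and nucleotide supply 1 of 4 and stress signalling and others 1 of 4. Trp53, Mdm2, Ccng1, Bax and Cdkn1a did not pass. These values are on a relative scale: each deposited value was divided by a factor that sets the median gene of each library of that time equal, and log2 fold changes are of scaled signal + 1. The median over the 34 genes was 0.18, beside 0.00 over all genes, and 26 of the 34 values were above 0. Both 4OHT libraries lay above both DMSO libraries for 19 genes, against a share of 34% of all genes, and below them for 5, against 34.1%; the groups overlapped for 10. At an unadjusted p under 0.05, 14 of the 34 (41.2%) were higher and 2 (5.88%) lower, against 24.0% and 22.0% of all genes. The count of 10 was 4 without 4OHT library 1 (11.8%, against 12.1% of all genes) and 6 without 4OHT library 2 (17.6%, against 14.9%), so the share was then near that of all genes; it was 9 without DMSO library 1 (26.5%, against 18.7%) and 12 without DMSO library 2 (35.3%, against 18.3%). It was 5 with no trend (14.7%, against 13.5%), and 0 in fits that called few or no genes at all: 0 of all genes higher with spike-in scaling or with no filter, and 4 with the spread from all 8 libraries.

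**Figure D1:**
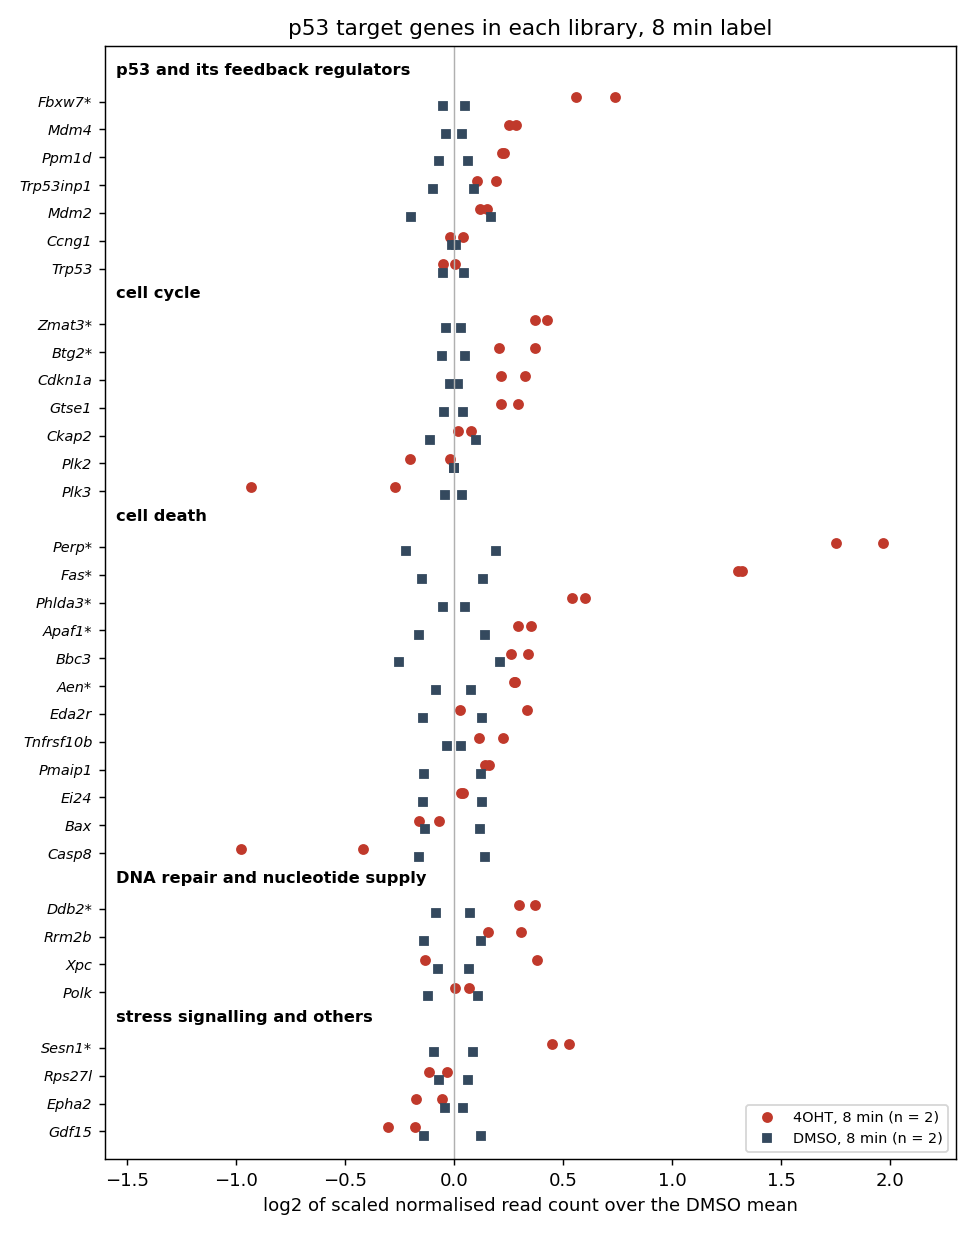
Scaled signal of each 8 min library of the 34 genes, as log2 over the mean of the DMSO libraries (horizontal axis), in rows by role; circles are the 2 4OHT libraries, squares the 2 DMSO libraries, and an asterisk marks the 10 genes that passed. The 4OHT circles of Perp and Fas lie far to the right of their DMSO squares, and those of Plk3 and Casp8 lie to the left without passing the test.

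Perp, a membrane protein of desmosomes that p53 induces in cell death, had the largest change of the 34 genes. Its scaled signal was 399 and 464 in 4OHT, against 102 and 135 in DMSO, from 5946 and 7874 reads in 4OHT and 1438 and 1530 in DMSO. Both 4OHT libraries lay well above both DMSO libraries. The fold change was 3.65 (log2 1.87 ± 0.14 SE, adjusted p = 9.97e-11). Fas, the death receptor of the CD95 ligand, had 83.9 and 82.7 in 4OHT, against 30.3 and 36.8 in DMSO. Its fold change was 2.45 (log2 1.29 ± 0.19 SE, adjusted p = 7.17e-06), on 1249 and 1404 reads in 4OHT and 428 and 416 in DMSO. For both genes the gap between the groups was larger than the gap between libraries of a group.

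The other 3 genes of cell death that passed rose by less. Phlda3, an inhibitor of the kinase Akt, had 402 and 419 in 4OHT, against 266 and 285 in DMSO (log2 0.57 ± 0.11 SE, adjusted p = 0.000285). Apaf1, the scaffold of the apoptosome that activates caspase-9, had 1965 and 1885 in 4OHT, against 1379 and 1697 in DMSO (log2 0.33 ± 0.12 SE, adjusted p = 0.0289). The DMSO libraries of Apaf1 stood further apart than its 4OHT libraries, though the groups did not overlap. Aen, a nuclease of apoptosis, had 700.2 and 701 in 4OHT, against 546 and 610.1 in DMSO (log2 0.28 ± 0.11 SE, adjusted p = 0.0442). Perp, Fas and Phlda3 passed without each of the 4 libraries in turn. Of those 4 fits, Apaf1 and Aen passed only in that without DMSO library 2 (adjusted p = 0.000841 for Apaf1 and 0.0206 for Aen), with adjusted p up to 0.255 for Apaf1 and 0.228 for Aen without another library.

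The other 7 genes of cell death did not pass. The BH3-only genes Bbc3, which encodes Puma, and Pmaip1, which encodes Noxa, had log2 fold changes of 0.32 (adjusted p = 0.121) and 0.16 (adjusted p = 0.298). Bax, the pore-forming effector of mitochondrial apoptosis, had 161 and 151 in 4OHT, against 184 and 154 in DMSO, and the groups overlapped (log2 −0.11, adjusted p = 0.559). Tnfrsf10b, a receptor of the death ligand TRAIL, Eda2r, a receptor of ectodysplasin A2, and Ei24 lay between 0.04 and 0.19. Casp8, the initiator caspase of death receptors, had 12.6 and 18.6 in 4OHT, against 27.5 and 22.3 in DMSO, the lowest log2 value of the 34 (−0.65 ± 0.28 SE, adjusted p = 0.0691). It rested on the fewest reads, 188 and 316 in 4OHT and 388 and 252 in DMSO, and passed only without DMSO library 2 (adjusted p = 0.0440).

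Among p53 and its feedback regulators, only Fbxw7 passed. Fbxw7, a substrate receptor of an SCF ubiquitin ligase, had 1601 and 1815 in 4OHT, against 1049 and 1125 in DMSO. The groups were separate, with a fold change of 1.57 (log2 0.65 ± 0.11 SE, adjusted p = 5.44e-05), and the call was kept without each library. The lncRNA Gm40080 lies over 36486 bases of Fbxw7, and the strand counted is not given in the sources used here, so reads of both cannot be told apart. Trp53 itself had 616 and 639.7 in 4OHT, against 658 and 615 in DMSO (log2 −0.02 ± 0.11 SE, adjusted p = 0.910). Its libraries overlapped completely, and the sign turned without 4OHT library 1 or DMSO library 1. Mdm2, the main ubiquitin ligase of p53, had 8378 and 8190.3 in 4OHT, against 6587 and 8492 in DMSO (log2 0.15 ± 0.16 SE, adjusted p = 0.489). Its call hung on the DMSO libraries, as it passed without DMSO library 2 (adjusted p = 0.0474) and its sign turned without DMSO library 1. Ccng1, cyclin G1, which recruits a phosphatase to Mdm2, had 3100.5 and 3232 in 4OHT, against 3124 and 3158 in DMSO (log2 0.01 ± 0.12 SE, adjusted p = 0.957). Its libraries of both groups fell within a narrow range. Mdm4, Ppm1d, the phosphatase Wip1, and Trp53inp1 had log2 values of 0.27, 0.23 and 0.15, with both 4OHT libraries above both DMSO libraries for each and adjusted p of 0.0675, 0.102 and 0.399.

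In the cell cycle group, Zmat3 and Btg2 rose. Zmat3, a zinc finger RNA-binding protein, had 1210.3 and 1167 in 4OHT, against 923 and 879.9 in DMSO (log2 0.40 ± 0.11 SE, adjusted p = 0.00465). Btg2, an antiproliferative partner of the CCR4-NOT deadenylase, had 2015 and 1797 in 4OHT, against 1614 and 1501 in DMSO (log2 0.29 ± 0.11 SE, adjusted p = 0.0460). Neither gene's groups overlapped. Cdkn1a, the cyclin-dependent kinase inhibitor known as p21, had 1619.8 and 1497 in 4OHT, against 1307 and 1273 in DMSO. Both 4OHT libraries were higher, by less than the threshold asks (log2 0.27 ± 0.11 SE, adjusted p = 0.0529). It stood on the border: adjusted p was 0.0573 with edgeR and 0.0225 with DESeq2. Gtse1, which shuttles p53 out of the nucleus, had a log2 value of 0.25 (adjusted p = 0.0673) with separate groups. Gtse1 passed with DESeq2 (adjusted p = 0.0349) and so did Mdm4 (adjusted p = 0.0176), and neither passed with edgeR. Ckap2, a spindle protein, had 0.05, Plk2 −0.11 and Plk3 −0.57 (adjusted p of 0.770, 0.484 and 0.103); Plk3 had only 22.0 and 13.9 in 4OHT, against 27.2 and 25.8 in DMSO. Zmat3 was lost without 4OHT library 1 (adjusted p = 0.0703), and Btg2 passed, of the 4 fits that leave out a library, only without DMSO library 1 (adjusted p = 0.0221).

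Of the repair genes, Ddb2, the subunit of the UV damage sensor, rose, with 220.4 and 209 in 4OHT, against 161 and 179.5 in DMSO (log2 0.33 ± 0.13 SE, adjusted p = 0.0394). The groups did not overlap, and of the 4 fits that leave out a library it passed only without DMSO library 2 (adjusted p = 0.0281). Ddb2 shares 2554 bases with Acp2. Xpc, the damage recognition factor of nucleotide excision repair, Polk, a translesion polymerase, and Rrm2b, the p53-inducible subunit of ribonucleotide reductase, had log2 values of 0.13, 0.04 and 0.24 and did not pass. In the remaining group Sesn1, a sestrin that restrains mTORC1, rose. It had 188 and 178 in 4OHT, against 139 and 122 in DMSO, with separate groups (log2 0.49 ± 0.13 SE, adjusted p = 0.00558). Sesn1 was lost without 4OHT library 1 (adjusted p = 0.0563). The cytokine Gdf15, the ephrin receptor Epha2 and the ribosomal protein Rps27l had log2 values of −0.22, −0.11 and −0.07 and did not pass.

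**Figure D2:**
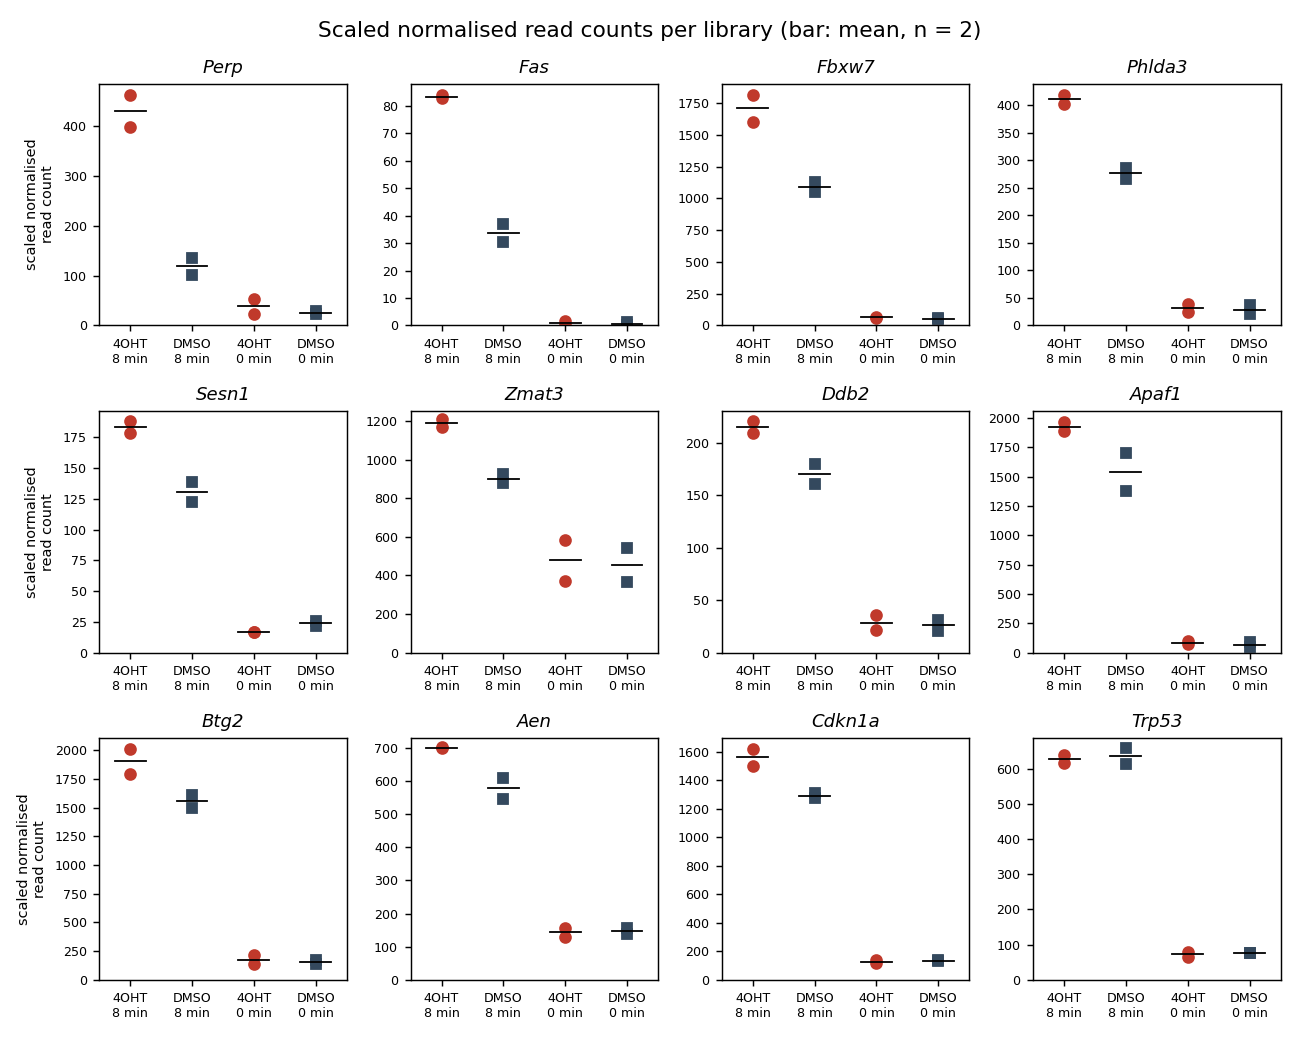
Scaled signal (vertical axes, from 0) in each of the 8 libraries for the 10 genes that passed and for Cdkn1a and Trp53; circles are 4OHT, squares DMSO, and bars the mean of 2 libraries. At 8 min the 4OHT circles lie above the DMSO squares in every panel except Trp53; values at 8 and 0 min were scaled apart and are not comparable across times.

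The calls were then set beside the promoter windows. Of the 10 genes that rose, 7 had a window: Aen and Sesn1 held a pair of elements, and Fas, Fbxw7, Btg2, Apaf1 and Phlda3 held neither a pair nor an element without mismatch. Of the 19 genes with a window that did not pass, 7 held a pair and 11 an element without mismatch. Cdkn1a and Ccng1, whose windows are printed above, were both among these, with log2 values of 0.27 and 0.01. A window without a match says only that these letters are not in it.

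**Figure D3:**
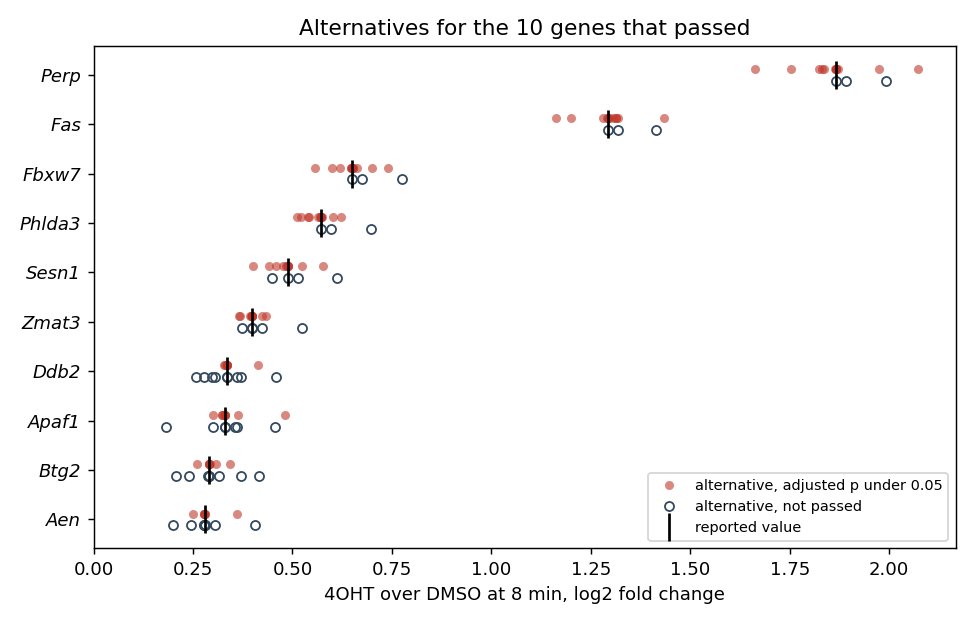
Log2 fold change of 4OHT over DMSO at 8 min for the 10 genes that passed, with the reported value as a vertical bar, alternatives that passed as filled points and those that did not as open points. The values of Perp, Fas, Fbxw7 and Phlda3 stay above 0.5 in the alternatives plotted, and Ddb2, Apaf1, Btg2 and Aen passed in 7, 9, 8 and 7 of 16 alternatives.

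On the authors' deposited scale the same genes gave a different count. The median gene was higher in 4OHT by 1.44 on the log2 scale at 8 min, and 30 of the 34 genes (88.2%) were higher, against 61.2% of all genes, and 0 were lower, against 0.0993%. The median of the 34 was 1.64. Plk3, Casp8, Gdf15 and Epha2 did not pass. This fit took its spread from all 8 libraries, unlike the relative one. With the 4 libraries of 8 min alone, 25 of the 34 (73.5%) were higher, against 60.0% of all genes. Perp was again highest (log2 3.32), followed by Fas (2.72), Fbxw7 (2.11) and Phlda3 (2.03), while Trp53 had 1.44 and Cdkn1a 1.74. What the deposited divisor of each library stands for is not given in the sources used here. At 8 min, spike-in sums on this scale, relative to all libraries, were 0.83 and 1.22 in 4OHT, against 0.20 and 0.80 in DMSO. With spike-in scaling the median gene was higher in 4OHT by 0.12. What lies behind the shift on the deposited scale was not tested. The count was 1 of 34 without 4OHT library 2 or DMSO library 1 (2.94%, against 0.568% and 0.530% of all genes) and 12 with no filter (35.3%, against 17.8%).

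At 0 min of label, with no labelling time, 0 of the 34 genes passed in either direction by limma, against 0% of all genes higher and 0% lower. At an unadjusted p under 0.05, 81 genes of all were higher (0.447%) and 51 lower (0.281%), and among the 34 genes 1 was higher (Gdf15). With a block for the column number, 4 of the 34 (11.8%) were higher at that limma threshold, against 2.62% of all genes. With that block 0 were lower, against 2.21%. After adjustment, edgeR and DESeq2 also called 0. Perp had 22.9 and 53.4 in 4OHT, against 23.8 and 28.1 in DMSO at 0 min, and the groups overlapped. Fas had 0 and 28 reads in 4OHT, against 2 and 18 in DMSO. Gdf15, the stress cytokine, had 42 and 32 reads in 4OHT, against 0 in both DMSO libraries. It was 10.8-fold higher against a chosen floor of 3 reads per library, a value that depends on that floor. The groups were separate with 4OHT above for 5 genes, against 9.02% of all genes, and with 4OHT below for 3, against 8.70%. At 0 min some genes differed between the libraries of a group: library 2 was over 1.5 times library 1 under both treatments for 6 of the 34 genes, and library 1 was over 1.5 times library 2 for 2. Mdm2, one of these, had 1140.4 and 2771 in 4OHT, against 1153 and 2392 in DMSO; Trp53 and Ccng1 differed less.

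The difference between the effects at 8 and 0 min was tested as an interaction, and 0 of the 34 genes passed, against 0% of all genes in each direction. At an unadjusted p under 0.05, 608 genes of all (3.36%) had a larger effect at 8 min and 589 (3.25%) a smaller one; of the 34, 2 and 1 were among them. Of these, Perp had a larger effect at 8 min by 1.44 ± 0.53 SE (adjusted p = 0.702), and Sesn1 by 0.99 ± 0.34 SE (adjusted p = 0.700). Gdf15 had a smaller one (adjusted p = 0.675), a value that depends on the pseudocount since DMSO had no reads at 0 min. For Sesn1, both 4OHT libraries lay above DMSO at 8 min, and both lay below it at 0 min, with 16.6 and 16.4 in 4OHT, against 26.1 and 21.9 in DMSO. That the 10 genes passed at 8 min and not at 0 min is therefore not shown to be a difference between the times.

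**Figure D4:**
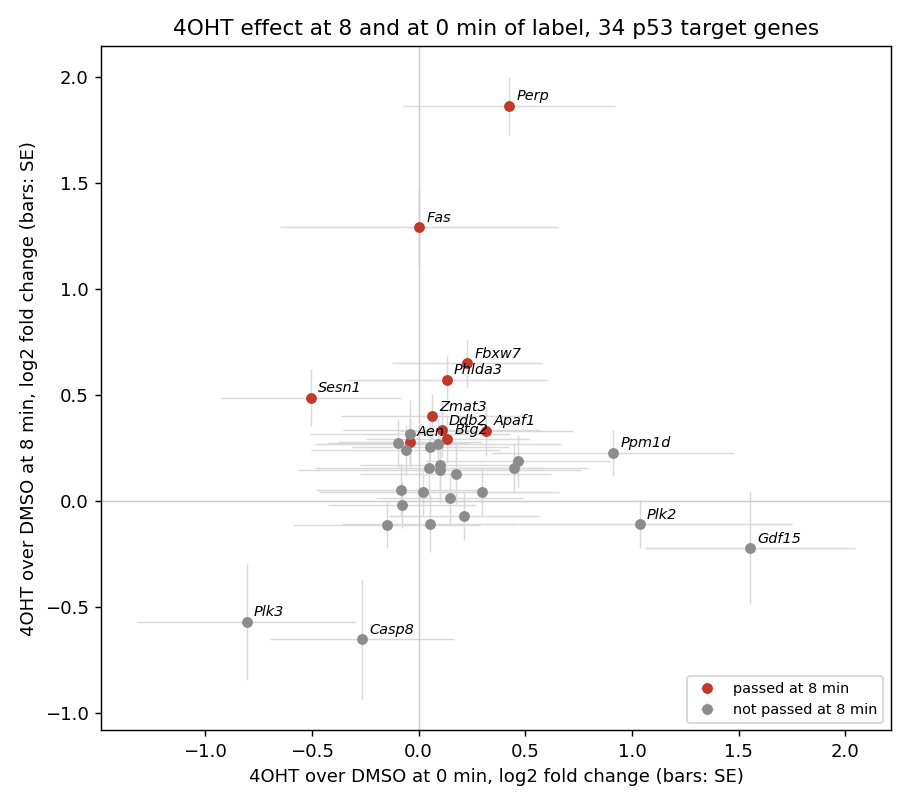
Log2 fold change of 4OHT over DMSO at 8 min (vertical) against that at 0 min (horizontal) for the 34 genes, with SE as bars; red points passed at 8 min. Perp and Fas stand out upward, Gdf15, Plk2 and Ppm1d lie to the right with wide horizontal bars, and the position of Gdf15 depends on the pseudocount.

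Signal at 8 min was set against that at 0 min on factors set over all 8 libraries, which hold the median gene near 0. The values place a gene against the other genes, and a rise or fall shared by all genes is removed. In 4OHT, 21 of the 34 genes (61.8%) were higher at 8 min, against 30.7% of all genes, and 4 (11.8%) lower, against 29.5%. In DMSO, 19 (55.9%) were higher, against 31.6% of all genes, and 5 (14.7%) lower, against 28.5%. The medians of the 34 were 1.15 in 4OHT and 1.02 in DMSO, beside 0.06 and 0.05 over all genes. Plk2, a serum-inducible kinase gene of 5.8 kb, had a log2 value of 4.98 in 4OHT and 6.27 in DMSO. Fas, Fbxw7 and Apaf1 were also higher at 8 min, with 4.43, 2.77 and 2.56 in 4OHT, against 3.20, 2.44 and 2.64 in DMSO. The values of Fas depend on the pseudocount, since it had few reads at 0 min: in 4OHT it was 5.01 with a pseudocount of 0.5 and 2.89 with 5, where Plk2 was 5.01 and 4.79.

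Relative to the other genes, Epha2, Rrm2b, Casp8 and Mdm4 were lower at 8 min under both treatments. Their log2 values were −1.63, −1.51, −1.87 and −1.20 in 4OHT, against −1.57, −1.71, −1.44 and −1.28 in DMSO. The change between times was not tested on the deposited scale, so a fall in amount is not shown. Zmat3 was lower in DMSO (−0.86, adjusted p = 0.0257) and did not pass in 4OHT (−0.61, adjusted p = 0.0837). Perp and Sesn1 passed in 4OHT (1.64 and 1.47) and not in DMSO (0.30 and 0.56). The interaction above, which scaled each time apart, did not pass for either gene. Genes under 10 kb (11 genes) had a median of 1.37 in 4OHT and 1.42 in DMSO, those of 10 to 30 kb (12 genes) 0.89 and 0.72, and those over 30 kb (11 genes) 1.47 and 0.56. The median of the 4OHT effect at 8 min was 0.01, 0.15 and 0.27 in these classes, of which 2, 3 and 5 genes had passed. These classes are small and the order was not tested.

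**Figure D5:**
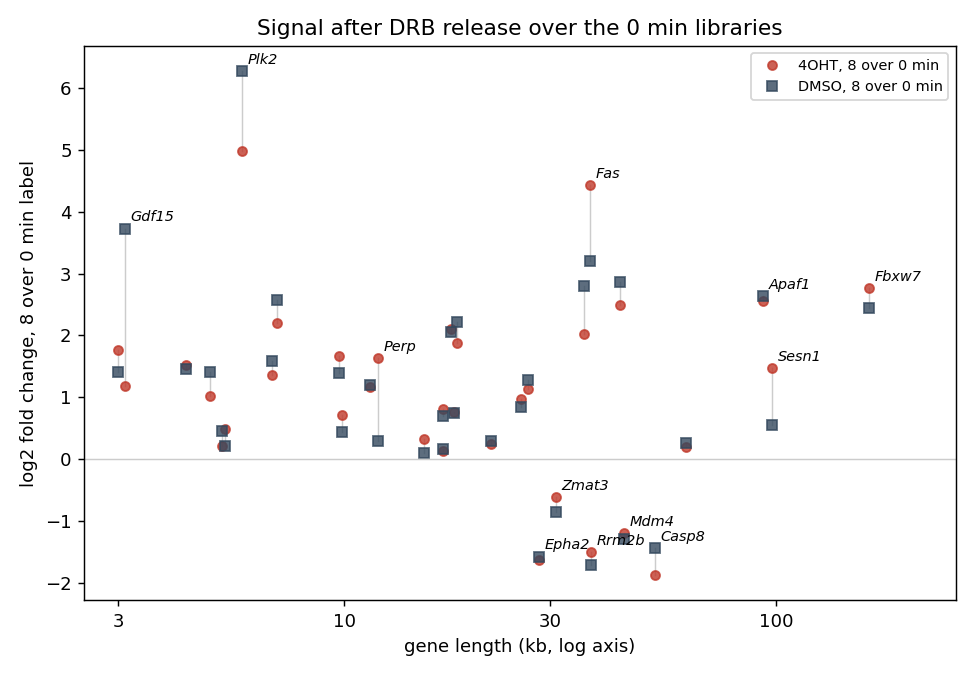
Log2 fold change of 8 over 0 min of label (vertical) against gene length in kb (log axis), with circles for 4OHT and squares for DMSO, joined for each of the 34 genes. The scaling holds the median gene near 0, so a value below 0 is low against other genes. Plk2 and Fas lie near the top, and Epha2, Rrm2b, Casp8, Mdm4 and Zmat3 lie below 0 under both treatments; the positions of Gdf15 and Fas depend on the pseudocount.

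Genes around the p53 pathway were read from 3 other lists at 8 min on the relative scale. Of 42 tested further p53 targets, 16 rose and 2 fell, with a median of 0.26. Those of smallest p were Trp53i11 (log2 1.92, adjusted p = 6.96e-09), Foxo3 (1.02), Zfp365 (0.99) and the lncRNA Pvt1 (0.83). Trp53i11 had 114 and 125 in 4OHT, against 27.9 and 33.98 in DMSO. The 2 that fell were Pcna, the clamp of DNA polymerases (−0.45, adjusted p = 0.00156), and Cpt1c (−0.46, adjusted p = 0.00246). Of 27 genes that regulate p53, 7 rose and 6 fell, with a median of 0.10. Trp63, a paralogue of p53, fell (log2 −1.62, adjusted p = 7.91e-07), with 28.2 and 34.3 in 4OHT, against 79.1 and 120.7 in DMSO. On the deposited scale it did not pass (log2 −0.18, adjusted p = 0.764). Relative to the other genes it was also lower at 8 than at 0 min (−3.24 in 4OHT and −1.66 in DMSO). The part of background RNA in its signal was not tested. Trp73, another paralogue, rose (0.44, adjusted p = 0.0101). The acetyltransferase gene Crebbp (0.73), the damage response gene Trp53bp1 (0.70) and Pml, the scaffold of nuclear bodies (0.62), rose. Of 20 genes of the G2 and M phases, which p53 and p21 are known to repress through the DREAM complex, 0 rose and 10 fell, with a median of −0.25. Ccnb1, cyclin B1, had 986 and 955 in 4OHT, against 1372 and 1556 in DMSO (log2 −0.59, adjusted p = 0.000144), and Nek2, Cenpf and Top2a had −0.52, −0.46 and −0.53. These shares stand beside 19.7% of all genes higher and 17.6% lower.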

How the data were processed

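Newly made RNA was measured in 8 libraries, 2 in each of 4 groups taken from the labels; columns were assigned to groups only. The authors deposited a signal table in which each value is a whole number of reads over 1 divisor per library (99.9974% to 100% of values within 0.01 of a whole number). The mm10 build, STAR 2.7, Bowtie2 and bcl2fastq are named, per the submitters' processing notes; the role of each, the annotation, the strand counted and the treatment of reads that map to several places are not given in the sources used here. Of 38971 entries, 60 spike-in and 1324 other entries without a gene were left out. Genes with a mean deposited signal of at least 10 over the libraries (18118) were scaled by median ratios and tested as log2(signal + 1) with limma 3.58.1 in R 4.3.3 (trended, two-sided, Benjamini-Hochberg, threshold 0.05), the relative scale within each time being the main one. The test on the deposited scale took its spread from all 8 libraries, and that on the relative scale at 8 min from the 4 libraries of that time. On simulated data with 200 genes changed by 1 on the log2 scale, drawn for 18118 genes of the 8 min comparison, 198 were recovered, with 8 false calls. The simulation gave all genes the same dispersion, so the rate is not shown to hold for smaller changes or noisier genes. edgeR 4.0.16 and DESeq2 1.42.0 on the recovered reads were alternatives, with other filters, pseudocounts, scalings, spreads and each library left out. All 34 genes are named by role, with full values for those that passed at 8 min and for Trp53, Cdkn1a, Mdm2 and Ccng1. From 3 other lists up to 4 genes of smallest p are named, and Pcna, Cpt1c and Trp73 were added after their values were seen. Members, lists and rules were chosen with earlier results of these data known. Promoters and coordinates are from RefSeq (GRCm38.p6). Reads are not independent molecules, so read numbers show counting error only.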

Additional observations from a re-analysis of the deposited data

How the results depend on the processing

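At 8 min on the relative scale, the 10 higher genes became 0 with no filter, 0 with the spread from all 8 libraries, 0 with spike-in scaling and 5 with no trend. Genes called higher among all genes tested fell too, to 0, 4, 0 and 2444, so the counts of 0 say little about the p53 genes. With no trend, 14.7% of the p53 genes were higher, against 13.5% of all genes, so the share was near that of all genes. Leaving out 1 library gave 4 to 12 higher and 0 to 1 lower (Casp8), with 12.1% to 18.7% of all genes higher. The count was 10 with edgeR on the recovered reads (3517 of all genes higher, 3161 lower), and 13 with DESeq2 (3523 and 3169), quantile normalization or a block for the column number. Perp, Fas, Fbxw7 and Phlda3 passed in each of these except no filter (adjusted p from 0.0544 to 0.0650), the spread from all 8 libraries and spike-in scaling. On the deposited scale the 30 higher genes became 12 with no filter (17.8% of all genes) and 1 to 28 without 1 library (0.530% to 58.7% of all genes). The 5 genes lower at 8 than at 0 min in DMSO became 3 with no filter and 2 to 5 without 1 library.

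The sign turned for values that had not passed. At 8 min it did so for Trp53 with no filter (0.0060) and spike-in scaling (0.106), for Ccng1 with a minimum of 100 (−0.0196), and with spike-in scaling for Plk2 (0.0163), Bax (0.0153), Epha2 (0.0110) and Rps27l (0.0530). Without 1 library at 8 min, Trp53 ranged from −0.0677 to 0.0303, Ccng1 from −0.0203 to 0.0414, Mdm2 from −0.0353 to 0.332, Xpc from −0.129 to 0.380, Ckap2 from −0.0524 to 0.158, Bax from −0.233 to 0.0175, Ei24 from −0.0922 to 0.179 and Polk from −0.0709 to 0.159. At 0 min, Fas was −0.0416 with a pseudocount of 0.5, −0.0625 with quantile normalization and −0.109 with spike-in scaling, and without 1 library it ranged from −0.599 to 0.695, and Perp from −0.167 to 1.03. The difference of effects for Ppm1d ranged from −1.38 to 0.0040. Perp within DMSO was −0.146 for 8 over 0 min with a minimum of 100.

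With the replicate block for the column number, 13 genes were higher at 8 min (38.2%, against 21.9% of all genes; Cdkn1a, Mdm4 and Gtse1 beside the 10), 0 passed at 0 min, and 32 were higher on the deposited scale (94.1%, against 86.1%). Deviations of libraries with 1 number correlated at 0.51 between treatments at 0 min, 0.11 at 8 min and 0.01 to 0.20 otherwise, over 2 numbers only, so the samples share a number and no pairing is taken from it. Depth limits Casp8, Plk3 and Gdf15, and Fas at 0 min.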
